A study of Mus musculus with 12 samples.

Results

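Ankrd1, Ankrd2, Csrp3, Xirp1, Xirp2, Flnc, Cryab, Hspb7, Bag3 and Ldb3 encode proteins of the muscle Z-disc and its surroundings that sense load, bind damaged filaments or clear them. They were chosen by symbol, and all 10 were found among the 24421 entries of the count table and among the 13937 genes tested. RNA of the tibialis anterior, a fast hindlimb muscle, was sequenced in 6 libraries from C57Bl/6 males (WT) and 6 from mdx/mTR males, all aged 4 months. The mdx mutation disrupts Dmd, the dystrophin gene, and mTR stands for the RNA component of mouse telomerase (Terc). The labels name neither the mdx allele nor the telomerase generation, and with these 2 groups the effects of the 2 mutations cannot be told apart. They also do not state that each library is a separate animal, so p-values measure the spread between these samples.

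The Z-disc is the actin-anchoring border of the sarcomere and takes up contraction force together with titin. Ankrd1 and Ankrd2 are muscle ankyrin repeat proteins that bind the elastic part of titin and can move to the nucleus, and Csrp3 (muscle LIM protein) sits at the Z-disc. Filamin C (Flnc) crosslinks actin, and the Xin proteins (Xirp1, Xirp2) bind actin and filamin C. These proteins are known to gather where myofibrils tear. Bag3 works with small heat shock proteins, the family of Cryab and Hspb7, to remove damaged filamin, and Ldb3 (ZASP) ties alpha-actinin into the Z-disc.

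The gene that the mdx mutation disrupts had less RNA in the libraries labelled mdx/mTR. Dmd ranged from 228 to 244 CPM (counts relative to library size, scaled by the trimmed mean of M-values, TMM) in WT, with a median of 239.7, and from 35.2 to 56.4 CPM in mdx/mTR, with a median of 48.2. Terc had 2 counts over all 12 libraries, so its loss could not be examined. Markers of mature fast fibres summed to 188610.0 to 221341 CPM in WT and 149455 to 206634 CPM in mdx/mTR. In this bulk tissue, fewer cells of a type and less RNA per cell cannot be told apart. Library totals ran from 35136327 to 60330410 counts, and the lowest count of any of the 10 genes in any library was 457, for Ankrd1.

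Of the 10 genes, 1 rose (Ankrd1) and 2 fell (Ankrd2 and Xirp2) in mdx/mTR, and 7 did not pass the test (edgeR quasi-likelihood test, adjusted p under 0.05 over all genes). Of all genes tested 48.3% were called, 25.0% higher and 23.4% lower, so 3 of 10 is no larger a share than the background. DESeq2 called the same number of the 10, and 49.9% of its genes. Scaling by library totals alone called 4 of the 10, 2 higher and 2 lower, against 51.3% of all genes, 40.2% higher and 11.2% lower. That scaling moved the median of all genes by 0.156 and the share of calls that were higher from 51.6% to 78.2%. The median log2 fold change of the 10 was -0.14, against 0.01 over all genes tested. The groups did not overlap for 3 of the 10, the same 3 genes, where 25.2% of all genes were without overlap. With upper quartile scaling or library totals alone, the groups overlapped for Ankrd2. In the authors' deposited table the same 3 of the 10 have an adjusted p below 0.05, with log2 fold changes of 3.09 for Ankrd1, -0.68 for Ankrd2 and -0.51 for Xirp2.

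**Figure D1:**
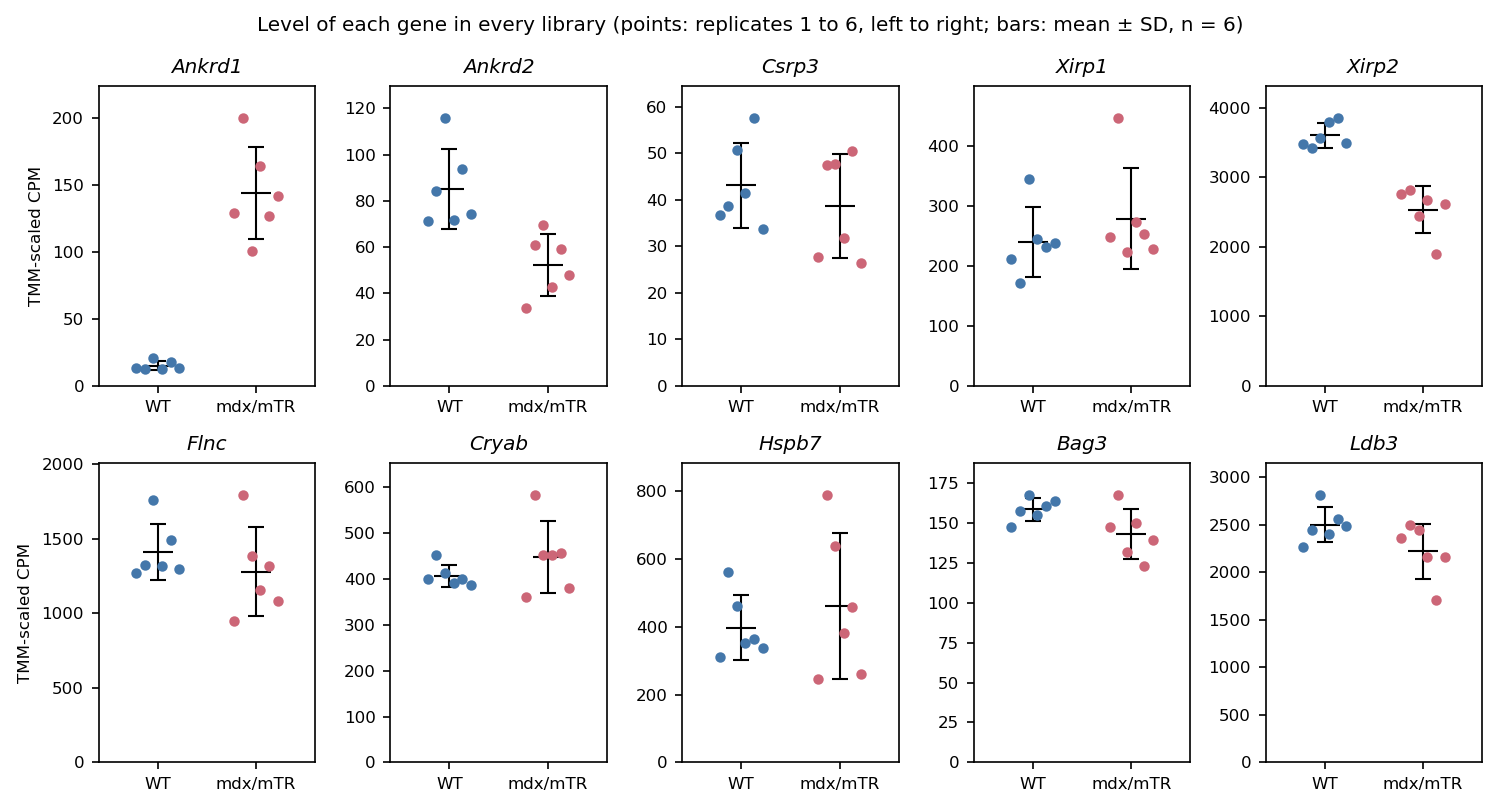
Level of each of the 10 genes in TMM-scaled CPM (y axis, from 0) in every WT and mdx/mTR library, with mean and SD over 6 libraries. The mdx/mTR libraries lie above all WT libraries for Ankrd1 (101 to 199.9 against 12.8 to 20.5 CPM) and below them for Ankrd2 and Xirp2, and the groups overlap for the other 7 genes.

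Sequence before the RefSeq start site (GRCm38.p6, the build of mm10, which the submitters' processing notes name) is shown for the 3 genes that changed, 5′ to 3′ on the gene's strand. Capitals mark the motifs searched. For Ankrd1 they mark the M-CAT motif CATTCC, the letters bound by TEAD factors, read here on the opposite strand as GGAATG. In the second Ankrd1 stretch it overlaps by its last base the paired heat shock letters GAANNTTC. Capitals mark a TATAAA in Ankrd2 and a MEF2 site in Xirp2.
Ankrd1, chr19:36120035-36120064, minus strand: cactgccaaaGGAATGaccctctcacattt
Ankrd1, chr19:36119948-36119977, minus strand: cactaagtctGGAATGAAAATTCacctgcc
Ankrd2, chr19:42035777-42036026, plus strand: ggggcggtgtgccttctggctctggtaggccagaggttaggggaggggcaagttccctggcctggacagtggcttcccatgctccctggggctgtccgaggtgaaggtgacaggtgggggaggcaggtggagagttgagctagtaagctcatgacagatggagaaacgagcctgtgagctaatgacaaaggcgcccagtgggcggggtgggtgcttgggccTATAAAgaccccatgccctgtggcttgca
Xirp2, chr2:67445752-67446001, plus strand: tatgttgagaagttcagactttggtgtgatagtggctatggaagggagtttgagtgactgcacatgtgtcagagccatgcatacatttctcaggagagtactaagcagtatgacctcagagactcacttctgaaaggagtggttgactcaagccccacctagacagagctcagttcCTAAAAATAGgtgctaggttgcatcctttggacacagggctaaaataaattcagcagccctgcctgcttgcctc

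These motifs were searched on both strands in the 250 bases before each start, together with the CArG box and TTCNNGAA. RefSeq start windows were matched for 8 of the 10 genes, 3 of them with 2 starts each, and Xirp1 and Cryab were not matched. CATTCC or its complement occurred in 12.6% of 27025 promoters of that length (the first start of each gene), GAANNTTC in 6.78%, TTCNNGAA in 7.1%, TATAAA in 13.0%, a CArG box in 1.4% and a MEF2 site in 0.518%. In Ankrd1 the M-CAT letters began at -210 and -123 relative to the start. The start of Ankrd1 differs between annotations, and the stretches shown lie within an exon of a longer GENCODE M21 transcript. The last 27 bases of the Ankrd2 stretch also lie in a GENCODE exon, and the marked TATAAA spans the GENCODE start at position 42036000. CATTCC also occurred before the second start of Flnc, GAANNTTC before the second start of Csrp3, and a CArG box before both starts of Ldb3. None of these motifs was found in the windows of Hspb7 and Bag3. A match describes the letters in the window, and binding was not measured.

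Ankrd1, whose protein couples titin strain to gene regulation, had the largest change of the 10. The gene lies at chr19:36111961-36120099 on the minus strand of GRCm38, with 9 exons in its longest coding transcript. Its level was 12.8 to 20.5 CPM in WT (median 13.5) and 101 to 199.9 CPM in mdx/mTR (median 136). Every mdx/mTR library was above every WT library. The mean went from 15.2 ± 3.24 to 144 ± 34.4 CPM (SD, n = 6 each), 9.47 times the WT mean, with a log2 fold change of 3.24 ± 0.17 (SE; edgeR adjusted p 3.1e-08). By size of change it ranked 14 among the 2011 genes with a mean of at least 5 CPM that rose. The spread relative to the mean was similar in both groups, at 21.3% in WT and 23.9% in mdx/mTR.

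Ankrd2, the paralog of Ankrd1 at chr19:42036000-42045110 on the plus strand, changed in the opposite direction. Its level was 71.2 to 116 CPM in WT (median 79.4) and 33.6 to 69.8 CPM in mdx/mTR (median 53.6). All 6 mdx/mTR libraries were below all WT libraries. The nearest were mdx/mTR replicate 3 at 69.8 CPM and WT replicate 1 at 71.2 CPM. The log2 fold change was -0.70 ± 0.17 (SE; edgeR adjusted p 0.00336). Of the 50-base stretches of either gene, 0.0% occurred in transcripts of other genes.

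Within each library, the ratio of Ankrd1 to Ankrd2 does not depend on the scaling between libraries. Per kilobase of the longest coding transcript it was 0.0852 to 0.107 in WT and 0.813 to 2.16 in mdx/mTR. Ankrd2 was the more abundant transcript per length in all 6 WT libraries, and Ankrd1 in 5 of 6 mdx/mTR libraries, the exception being replicate 3. Ankrd23, which encodes the remaining muscle ankyrin repeat protein, did not pass the test, with a mean of 3610.5 ± 423 CPM in WT against 3456 ± 378 in mdx/mTR and a log2 fold change of -0.06 (edgeR adjusted p 0.602). Its level is uncertain, since 78.2% of its exonic bases are shared with Gm42417 on the same strand.

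**Figure D2:**
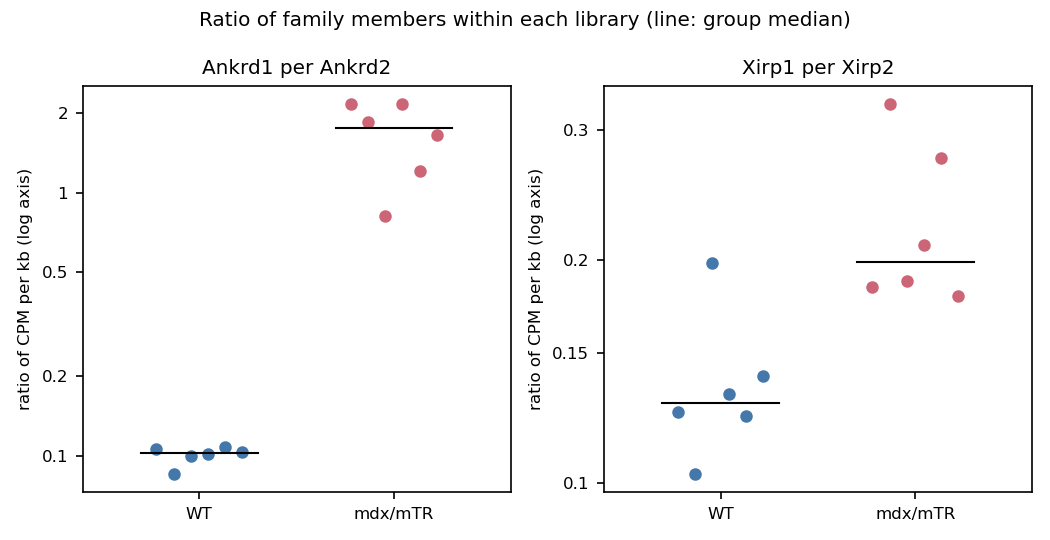
Ratio of CPM per kilobase (log y axis) of Ankrd1 to Ankrd2 and of Xirp1 to Xirp2 within each library, with the group median as a line. The ratio of Ankrd1 to Ankrd2 is at most 0.107 in WT and at least 0.813 in mdx/mTR, while the ratios of Xirp1 to Xirp2 overlap between the groups.

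Csrp3, the muscle LIM protein gene at chr7:48830398-48848033, ranged from 33.8 to 57.6 CPM in WT (median 40.0) and from 26.4 to 50.6 CPM in mdx/mTR (median 39.6). The mdx/mTR libraries split, with replicates 1, 4 and 6 at 26.4 to 31.7 CPM, below all WT libraries, and replicates 2, 3 and 5 at 47.6 to 50.6 CPM. The log2 fold change was -0.16 (95% interval -0.55 to 0.23, edgeR adjusted p 0.489), so a change within that interval could not be told from none. Csrp3 and Ankrd2 are known to be more abundant in slow than in fast fibres. Of 8 slow-fibre marker genes, 5 rose and 1 fell, where 25.0% of all genes tested rose and 23.4% fell. The fall was that of Myl3, the most abundant of the 8 in WT, from 80.1 ± 39.0 to 22.2 ± 4.41 CPM. The summed level of the 8 was 130.2 to 257 CPM in WT against 160.4 to 375 in mdx/mTR. The part of slow fibres in these results was not tested.

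Of the Xin genes, Xirp2 fell and Xirp1 did not pass the test; the difference between their changes was not tested. Xirp2, at chr2:67446002-67526614, ranged from 3418 to 3847 CPM in WT (median 3531) and from 1889.9 to 2819.6 CPM in mdx/mTR (median 2643). All 6 mdx/mTR libraries lay below all WT libraries, and replicate 5 was the lowest. The mean of mdx/mTR was 70.4% of that of WT, with a log2 fold change of -0.51 ± 0.09 (SE; edgeR adjusted p 0.00049). On the opposite strand Gm13601 shares 1.4% of the exonic bases of Xirp2.

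Xirp1, at chr9:120013755-120023598, was at 171 to 345 CPM in WT (median 234) and 224 to 446 CPM in mdx/mTR (median 250.5), and the groups overlapped. Highest was mdx/mTR replicate 2 at 446 CPM, while the next was at 273 CPM. The log2 fold change was 0.22 (95% interval -0.17 to 0.60, edgeR adjusted p 0.344), and it was 0.0309 without mdx/mTR replicate 2. Per kilobase, the ratio of Xirp1 to Xirp2 was 0.103 to 0.198 in WT and 0.179 to 0.325 in mdx/mTR.

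Flnc, at chr6:29433256-29461883, encodes the muscle filamin that both Xin proteins and Bag3 act upon. Its level was 1269.9 to 1756 CPM in WT (median 1318) and 947 to 1795 CPM in mdx/mTR (median 1236). In mdx/mTR, 3 libraries were below all WT libraries and replicate 2 was above them. The log2 fold change was -0.14 (95% interval -0.43 to 0.15, edgeR adjusted p 0.424). It was -0.26 without mdx/mTR replicate 2 (adjusted p 0.0715).

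Among the chaperones, none passed the test. Cryab (alpha-B crystallin) ranged from 386 to 453 CPM in WT (median 399.6) and from 360.3 to 584 CPM in mdx/mTR (median 453). The mdx/mTR libraries lay on both sides of WT, 3 above all WT libraries and 2 below. Its log2 fold change was 0.14 (95% interval -0.07 to 0.35, edgeR adjusted p 0.26), and 0.0474 without mdx/mTR replicate 2. Scaled by library totals alone it was 0.30, past the threshold (adjusted p 0.0423).

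The Cryab gene lies at chr9:50751325-50756636 beside Hspb2, another small heat shock protein gene on the opposite strand, and 17.0% of its exonic bases overlap Hspb2. Strand handling of the counts is not given in the sources used here, so reads in that overlap could count for either gene. Hspb2 averaged 28.9 ± 2.63 CPM in WT against 30.7 ± 1.78 in mdx/mTR, a log2 fold change of 0.09 (edgeR adjusted p 0.271). Per kilobase, Cryab was 8.32 to 11.6 times as abundant as Hspb2 in WT and 7.76 to 13.7 times in mdx/mTR.

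Hspb7, a small heat shock protein that binds filamin C, varied more between the mdx/mTR libraries than the other 9 genes. The gene, at chr4:141420779-141425311, was measured at 311 to 560.4 CPM in WT (median 357) and 245 to 789 CPM in mdx/mTR (median 419.8). Replicates 2 and 3 of mdx/mTR were above all WT libraries and replicates 1 and 6 below them. The coefficient of variation was 23.9% in WT and 46.5% in mdx/mTR. Its log2 fold change was 0.22 (95% interval -0.34 to 0.78, edgeR adjusted p 0.516), and -0.00197 without mdx/mTR replicate 2. Of its 50-base stretches, 1.1% occurred in transcripts of other genes.

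Bag3, the co-chaperone gene at chr7:128523616-128546981, varied least in WT, with a coefficient of variation of 4.52%. Its level was 147 to 168 CPM in WT (median 159) and 123 to 167 CPM in mdx/mTR (median 143). In mdx/mTR, 3 libraries were below all WT libraries and none above. Its log2 fold change was -0.15 (95% interval -0.29 to -0.01, unadjusted p 0.042, edgeR adjusted p 0.0795), and -0.20 without mdx/mTR replicate 2, past the threshold (adjusted p 0.0132; 44.5% of all genes were called in that fit).

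Ldb3, the alpha-actinin binding scaffold at chr14:34526603-34588682, ranged from 2268 to 2815 CPM in WT (median 2465) and from 1704 to 2492 CPM in mdx/mTR (median 2262). Its 3 lowest mdx/mTR libraries were below all WT libraries, and replicate 5 was the lowest. This gave a log2 fold change of -0.17 (95% interval -0.36 to 0.03, edgeR adjusted p 0.138). Counts are per gene, so the 7 coding transcripts that GENCODE M21 lists for Ldb3 could not be separated.

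**Figure D3:**
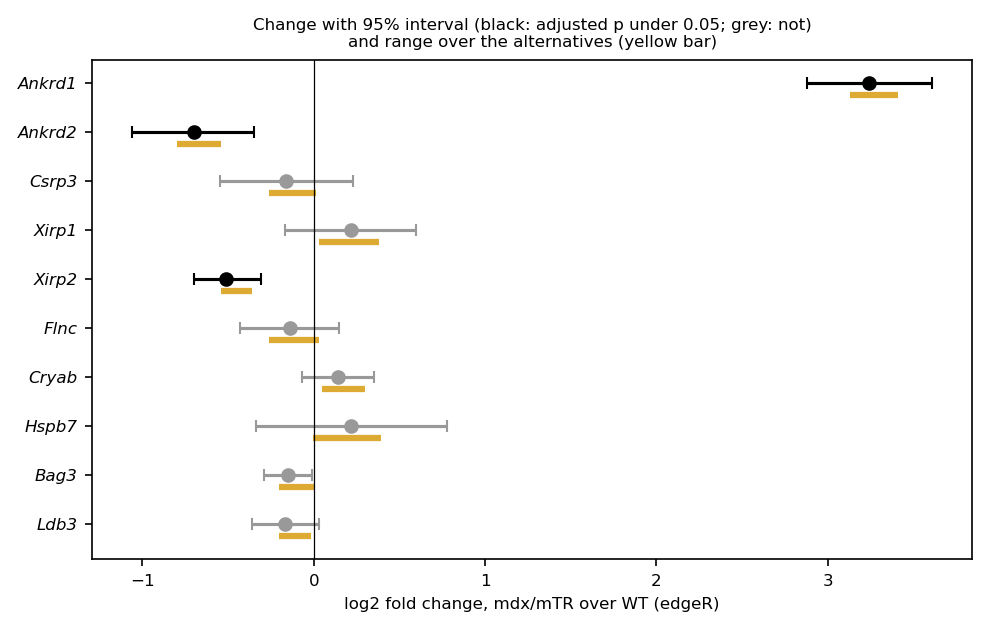
Change from WT to mdx/mTR as log2 fold change (x axis) for each gene with its 95% interval, black where the adjusted p is under 0.05 and grey where it is not. The yellow bar spans the values under the alternative settings, which run from 3.13 to 3.41 for Ankrd1, from -0.80 to -0.54 for Ankrd2 and from -0.54 to -0.36 for Xirp2.

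Levels of the 10 genes relative to each other were compared as CPM per kilobase of the longest coding transcript. In WT the order was Ldb3 (488), Cryab (364), Xirp2 (300.5), Flnc (156), Hspb7 (143), Ankrd2 (74.9), Bag3 (61.9), Csrp3 (48.0), Xirp1 (41.1) and Ankrd1 (7.52). Of neighbours in that order, the ranges overlapped for Flnc and Hspb7, Ankrd2 and Bag3, Bag3 and Csrp3, and Csrp3 and Xirp1. Ankrd1 was last, below the range of every other gene in the set. In mdx/mTR it was in rank 6, at 71.2 CPM per kilobase, with a range that overlapped those of Hspb7, Bag3, Xirp1, Ankrd2 and Csrp3. Ankrd2 moved from rank 6 to rank 9, at 46.0 CPM per kilobase. The first 3 genes kept their order, with Ldb3 at 434, Cryab at 401 and Xirp2 at 211, but the ranges of Ldb3 and Cryab overlapped, and that of Xirp2 overlapped those of Hspb7 and Flnc.

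Libraries within a group differed in several of the genes at once. In mdx/mTR, replicate 2 was the highest library for 8 of the 10 genes, the exceptions being Ankrd2 and Csrp3, while it was the highest for 15.6% of all genes tested. In WT, replicate 3 was the highest for 6 of the 10 (Ankrd1, Ankrd2, Xirp1, Flnc, Bag3 and Ldb3), and for 13.3% of all genes. The coefficient of variation was larger in mdx/mTR than in WT for 10 of the 10 genes, as it was for 62.7% of all genes tested. These are counts from libraries that also entered the tests above, and the labels separate the libraries of a group in nothing but their number.

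**Figure D4:**
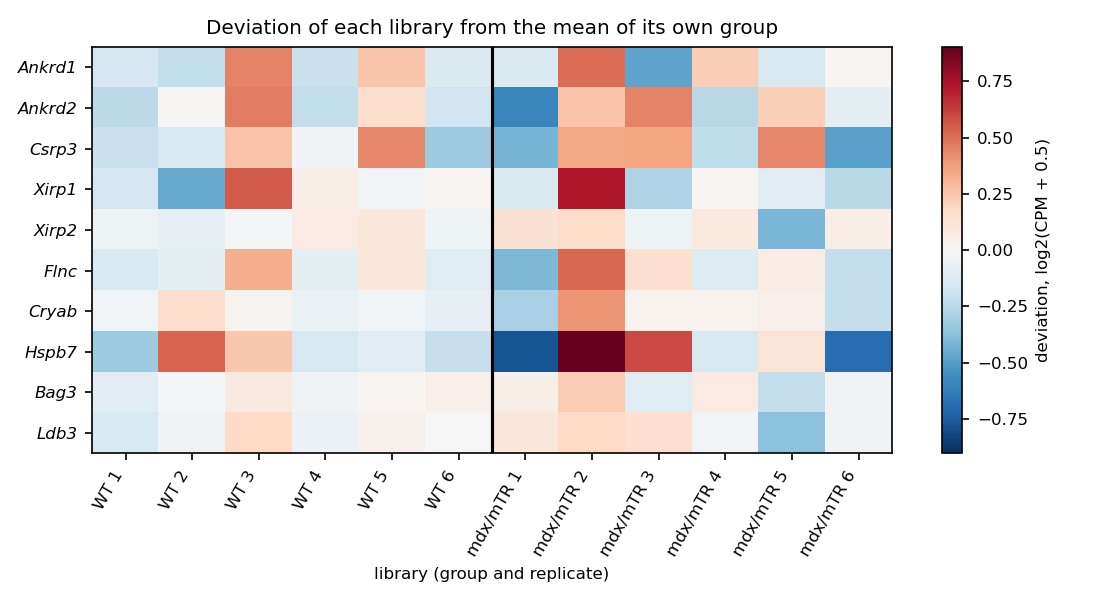
Deviation of each library (x axis) from the mean of its own group in log2(CPM + 0.5), for each gene (rows), with red above and blue below the mean. The library of mdx/mTR replicate 2 is above its group mean for all 10 genes, and Hspb7 shows the widest deviations.

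The 10 genes were also set beside a score of 7 regeneration markers (Myh3, Myh8, Myog, Tmem8c, Chrng, Chrna1 and Ncam1) over the 6 mdx/mTR libraries. A further listed marker, Mymx, was not among the entries of the count table. All 7 markers rose, where 25.0% of all genes tested rose. Their summed level was 32.3 to 37.1 CPM in WT against 124 to 578 in mdx/mTR. Of the 10 relations computed, 0 passed an adjusted p of 0.05 (exact two-sided permutation tests), and 0 had an unadjusted p of Pearson's r below 0.05. Ankrd1 had an r of 0.205 (exact permutation p 0.679, adjusted p 0.679) and a rho of 0.143 (exact permutation p 0.803, adjusted p 0.892), and an r of 0.356 without replicates 2 and 5, the farthest from the median score. Csrp3 had the largest positive r, at 0.728 (exact permutation p 0.0986, adjusted p 0.463), with a rho of 0.771 (exact permutation p 0.103, adjusted p 0.34), and 0.377 without those libraries. Cryab had a rho of 0.943 (exact permutation p 0.0167, adjusted p 0.167) and an r of 0.58 (exact permutation p 0.224, adjusted p 0.512), and 0.893 without those libraries. Xirp2 had an r of nearly the same size in the other direction, at -0.727 (exact permutation p 0.132, adjusted p 0.463), with a rho of -0.257 (exact permutation p 0.658, adjusted p 0.892), and -0.254 without those libraries. Ldb3 had an r of -0.674 (exact permutation p 0.139, adjusted p 0.463) and a rho of -0.143 (exact permutation p 0.803, adjusted p 0.892), and -0.335 without those libraries. Without mdx/mTR replicate 5 alone, r was 0.453 for Xirp2 and 0.417 for Ldb3, and for Bag3 it went from -0.273 to 0.779. Without mdx/mTR replicate 2 alone, r was -0.948 for Xirp2, -0.926 for Ldb3 and -0.747 for Bag3. The sign for these genes depended on which library was left out. Leaving out replicate 5 also took r from 0.205 to 0.758 for Ankrd1, 0.377 to 0.933 for Xirp1 and 0.551 to 0.891 for Flnc. For Cryab r went from 0.58 to 0.967, for Hspb7 from 0.487 to 0.794 and for Ankrd2 from 0.478 to 0.491. For Csrp3 it went from 0.728 to 0.665. Without replicate 5, 0 relations passed (smallest adjusted p 0.0833, exact permutation, for Cryab). In that case replicate 2 had the highest score of the libraries left. With replicate 2 left out in place of replicate 5, r was -0.012 for Ankrd1, 0.362 for Xirp1 and 0.55 for Flnc. It was 0.607 for Cryab, 0.409 for Hspb7, 0.423 for Ankrd2 and 0.698 for Csrp3, and 0 relations passed. The smallest two-sided p that 6 libraries allow is 0.00278.

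Several lists of markers of other cells differed between the groups. Of all genes tested 48.3% were called, 25.0% higher and 23.4% lower. Macrophage markers rose for 7 of 7 genes (summed level 73.2 to 124 CPM in WT against 223 to 642 in mdx/mTR), and fibroblast markers for 5 of 6 (876 to 1594 CPM against 2189 to 4386). Mature fast-fibre markers fell for 2 of 9 genes and rose for 1 (33.3% called). Satellite cell markers rose for 2 of 5 genes (40.0% called). Both shares were below that of all genes. Tendon markers rose for 3 of 5 genes (63.0 to 100.3 CPM against 80.2 to 133). Schwann cell markers fell for 4 of 5 (71.5 to 87.7 CPM against 51.5 to 68.3) and endothelial markers for 3 of 5 (402 to 536 CPM against 319.7 to 426). Of 5 vascular smooth muscle markers, 1 rose and 2 fell. Ankrd1 is also known as a cardiac gene, and 2 of 7 cardiac markers could be tested. Tnnt2, which developing skeletal muscle also expresses, rose from 2.36 ± 0.457 to 18.4 ± 13.4 CPM (log2 fold change 2.96, edgeR adjusted p 3.1e-05), and Myh6 fell from 5.19 ± 0.557 to 1.95 ± 0.634 CPM (-1.42, adjusted p 3.7e-05), both with no overlap between groups. The other 5, Myl7, Nppa, Nppb, Tnni3 and Ryr2, had at most 0.447 CPM in any library. The part of these marker groups in the changes of Ankrd1, Ankrd2 and Xirp2 was not tested.

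The remaining genes of the same structures were read from 6 lists. Of 17 other Z-disc scaffold genes, 4 rose and 4 fell (47.1% called, against 48.3% of all genes), with a median log2 fold change of -0.13. The smallest p-values were those of Pdlim3 (0.28 ± 0.08 SE) and Fhl2 (0.89 ± 0.30) among rises and of Myot (-0.49 ± 0.09), the myotilin gene, and Pdlim5 (-0.36 ± 0.07) among falls. Fhl2 was low, at 0.946 ± 0.211 CPM in WT against 1.76 ± 1.01 in mdx/mTR. Its call was lost without WT replicate 5 or 6 (edgeR adjusted p 0.055 and 0.0528) and with limma-voom (adjusted p 0.0554). The number of rises was 1 without WT replicate 6 and 2 without any of WT replicates 1, 4 and 5 and mdx/mTR replicates 1, 2 and 6. With library totals alone, 6 rose and 2 fell, against 40.2% and 11.2% of all genes.

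Chaperone-assisted selective autophagy is the route by which Bag3 clears filamin. Of its 10 other listed genes, 0 rose and 4 fell (40.0% called, against 48.3% of all genes), with a median of -0.06. Of all genes, 25.0% rose and 23.4% fell. Hspa8, the constitutive Hsp70 partner of Bag3, fell by 0.47 ± 0.06 on the log2 scale (SE; edgeR adjusted p 5.4e-05), from 228 ± 16.7 to 164 ± 13.2 CPM, with no overlap between groups. Tsc1 fell by 0.27 on the log2 scale (adjusted p 0.00242). With library totals alone, 2 genes rose and 2 fell, against 40.2% and 11.2% of all genes.

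Of 10 genes of the heat shock response, 6 fell and 2 rose, where 23.4% of all genes fell and 25.0% rose, and the median log2 fold change was -0.22. With library totals alone 4 fell and 2 rose, against 11.2% and 40.2% of all genes, and the median was -0.06. Hspd1, the mitochondrial chaperonin gene, went from 107 ± 5.06 to 73.3 ± 3.54 CPM (-0.55 ± 0.05 SE, edgeR adjusted p 1.3e-06), and Hsph1, an Hsp70 exchange factor gene, from 121 ± 18.6 to 71.1 ± 5.41 CPM (-0.77 ± 0.10, adjusted p 3.1e-05). Dnajb1, an Hsp40 gene, rose (0.33, adjusted p 0.0069). Hspa1b, a stress-inducible Hsp70 gene with a near-identical neighbour, had 8.44 CPM in mdx/mTR replicate 1 and 0.711 to 1.92 CPM in the remaining 5 of that group. Its log2 fold change of 1.39 (edgeR adjusted p 0.0424) was 0.51 without that library (adjusted p 0.153). The call was also lost without WT replicate 2, 3, 4, 5 or 6 (edgeR adjusted p 0.0609 to 0.0853) and with limma-voom (adjusted p 0.146).

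Filamin C and Xin proteins bind partners at the membrane and at cell junctions. Of 12 such genes, 6 rose and 3 fell (75.0% called, against 48.3% of all genes), with a median of 0.17. Of all genes, 25.0% rose and 23.4% fell. Itga7, the muscle laminin receptor subunit, went from 144 ± 9.98 to 207 ± 19.7 CPM (0.53 ± 0.07 SE, edgeR adjusted p 3.7e-05), and Enah, an actin regulator, from 55.4 ± 3.34 to 80.8 ± 9.94 CPM (0.54 ± 0.07, adjusted p 6.2e-05). Sgcd, a sarcoglycan that binds filamin C, fell by 0.29 (adjusted p 0.00312) and Ctnnb1, the beta-catenin gene, by 0.15 (adjusted p 0.00915). With library totals alone 8 rose and 0 fell, against 40.2% and 11.2% of all genes, and Ctnnb1 stood at 0.00882.

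Of 15 genes of the response to mechanical load, 5 rose and 2 fell (46.7% called, against 48.3% of all genes), with a median of 0.07. Of all genes, 25.0% rose and 23.4% fell. Yap1, a co-activator of TEAD factors, rose from 84.6 ± 6.62 to 106 ± 6.36 CPM (0.33 ± 0.06 SE, edgeR adjusted p 0.00043), and Zyx, the zyxin gene, from 24.2 ± 1.44 to 32.9 ± 5.01 CPM (0.44 ± 0.09, adjusted p 0.00103). Srf, the factor that binds CArG boxes, fell by 0.27 (adjusted p 0.00375), and Mkl1, which encodes a co-activator of Srf, by 0.35 (adjusted p 0.0293). Under scaling by library totals, neither fall passed in edgeR (adjusted p 0.0812 for Srf and 0.291 for Mkl1). In that fit 6 of the 15 genes rose and 0 fell, against 40.2% and 11.2% of all genes. The Mkl1 call was also lost without WT replicate 2 or mdx/mTR replicate 1, 3 or 6 (edgeR adjusted p 0.0572 to 0.0644). Upper quartile scaling lost it too (edgeR adjusted p 0.0538).

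Among 16 relatives of the 10 genes, 15 were tested, 4 rose and 1 fell, with a median of 0.08. Of those tested 33.3% were called, against 48.3% of all genes. The small heat shock protein genes Hspb1 (0.32, edgeR adjusted p 0.0218) and Hspb3 (0.25, adjusted p 0.0163) rose. Bag6 fell by 0.15 (edgeR adjusted p 0.0403), a call that was lost without any of 8 of the 12 libraries and with library totals alone (0.00148). The Bag6 call was also lost with upper quartile scaling (edgeR adjusted p 0.109) and without the filter on low counts (edgeR adjusted p 0.0542). Hspb1 was lost without WT replicate 6 (adjusted p 0.0505), and without WT replicate 1, 3 or 5 the rises numbered 2. With library totals alone, 7 rose and 0 fell, against 40.2% and 11.2% of all genes.

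**Figure D5:**
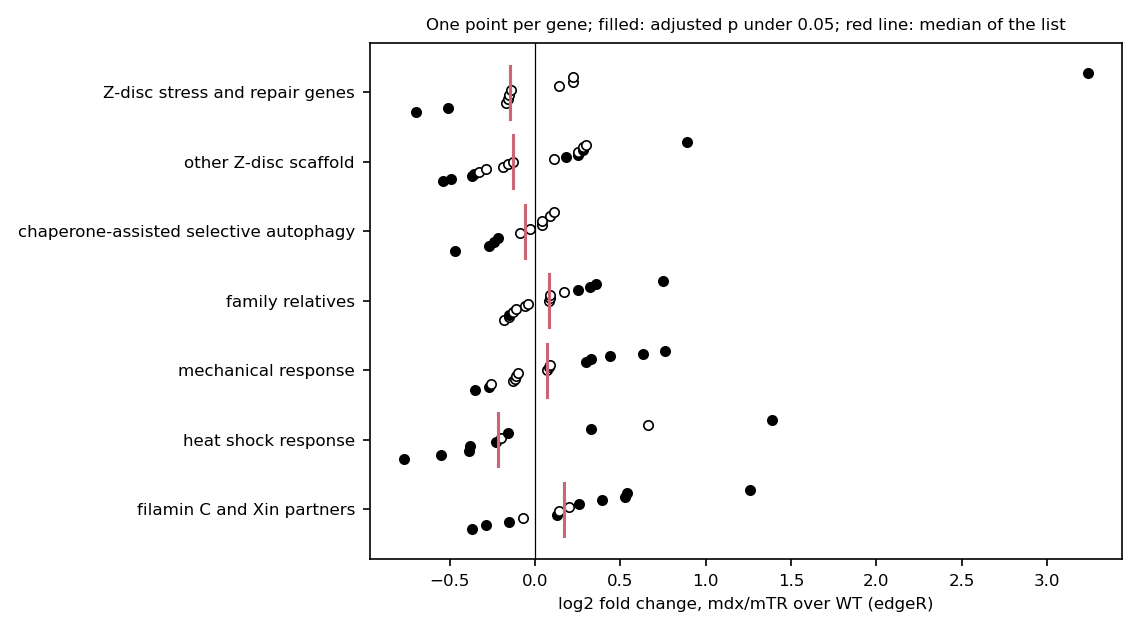
Change from WT to mdx/mTR as log2 fold change (x axis) for each tested gene of the 10 and of the 6 lists, filled where the adjusted p is under 0.05, with the median of each list as a red line. Ankrd1 lies at 3.24, beyond every other gene plotted, and the medians lie between -0.22 and 0.17.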

How the data were processed

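Poly(A) or total RNA selection is not given in the sources used here. Per the labels' protocols, RNA came from tibialis anterior with an integrity number above 9.0. The submitters' processing notes name FastQC, STAR, DESeq2 and mm10. The counter, annotation and strand handling are not given in the sources used here. The authors deposited whole-number counts per gene symbol (24421 entries, 0 unmatched columns) and a table of their comparison. Per the file headers it holds a mean normalized signal, log2 fold changes, a test score and p-values.

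Counts were tested with edgeR 4.0.16 (R 4.3.3): filterByExpr, TMM, group as the only term, quasi-likelihood F test, Benjamini-Hochberg over 13937 genes. SE is the log2 fold change over the square root of F. Alternatives used other filters and scalings, DESeq2 1.42.0, limma-voom 3.58.1, a replicate block and each library left out. Correlations used exact permutation in numpy 2.4.6. The fit was tested on simulated data. The 10 genes and all lists were chosen with earlier results of these data known. Named were the 10, Dmd, the 2 smallest p-values per list and direction, and the nearest profiles; Ankrd23 and Hspb2 were added as relatives. Coordinates and lengths came from GENCODE M21 (GRCm38) and promoters from RefSeq.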

Additional observations from a re-analysis of the deposited data

Results flagged for a closer look

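A library was counted as standing apart from the other 5 of its group when its distance to the nearest of them exceeded 0.625 of the full range (Dixon's ratio). This held in 8 of 86 sets of 6 values, and about 4.3 would be expected by chance. Xirp1 was the single gene of the 10 among them, at 446 CPM in mdx/mTR replicate 2 with the remaining 5 between 224 and 273 CPM (ratio 0.778). Among listed genes, Pdlim3 stood at 479.5 CPM in WT replicate 3 (ratio 0.637), Fhl2 at 3.75 CPM in mdx/mTR replicate 5 (ratio 0.723) and Hspa1b at 8.44 CPM in mdx/mTR replicate 1 (ratio 0.843). Among summed markers, WT replicate 2 was highest for slow-fibre markers (257 CPM, ratio 0.776) and endothelial markers (536 CPM, ratio 0.668). In mdx/mTR, replicate 5 stood out in regenerating-fibre markers (578 CPM, ratio 0.632) and cardiac markers (47.5 CPM, ratio 0.732). The flags are not independent, since markers of a list move together.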

How the results depend on the processing

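Ankrd1, Ankrd2 and Xirp2 kept their direction and their call under all 20 alternatives run for log2 fold changes. Library totals alone raised the number of the 10 genes called higher to 2 (Cryab added) and turned the sign of Csrp3 (0.0134), Flnc (0.0291) and Bag3 (0.00578), none of which was called; that scaling shifted the median of all genes by 0.156 and made 78.2% of calls higher in place of 51.6%. Hspb7 changed sign without mdx/mTR replicate 2 (-0.00197), and without each library in turn it ran from there to 0.35, with no call. Without each library in turn, 3 to 4 of the 10 were called, 1 higher and 2 to 3 lower, 3 did not overlap, 0 relations to the regeneration score passed, and 6125 to 6816 genes were called over the whole table. With the replicate block, 3 of the 10 were called and 6420 genes over the whole table, 6197 of them shared with the 6736 of the fit without it. Deviations of libraries with the same number correlated from -0.139 to 0.334. Libraries of unlike number were not compared in this way, so whether the numbers pair the libraries was not tested. The block moved no call of the 10; of the genes named from the lists, Fhl2 was lost (edgeR adjusted p 0.0504). The lowest count of any of the 10 genes in a library was 457; the effect of depth on the calls was not tested.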

Other observations

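The 3 genes whose profiles over the 12 libraries were nearest to that of Ankrd1, by root mean square distance of centred log2(CPM + 0.5) among 9508 genes with a mean of at least 5 CPM, were Prune2 (distance 0.328, log2 fold change 3.01), Cilp (0.406, 2.94), a cartilage matrix gene, and Ttc9 (0.428, 2.81). The nearest of the other 9 genes was Xirp1, at 1.51. For Ankrd2 the nearest were Stk40 (0.232, log2 fold change -0.88), Ddit3 (0.242, -0.64), a transcription factor gene of the integrated stress response, and Fam122a (0.255, -0.75), while the nearest of the 10 was Flnc at 0.322. Likeness of profiles is a description and was not tested.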
